A study of Mus musculus with 93 samples.

Results

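The nuclear-encoded genes of the respiratory chain and ATP synthase were described across single cells of mouse lung, 82 genes of the 21285 with values in every cell. They were chosen by symbol alone: the Ndufa, Ndufb, Ndufc, Ndufs and Ndufv genes of complex I (37 genes), Sdha to Sdhd of complex II (4), the Uqcr genes of complex III (8), the Cox4 to Cox8 genes of complex IV (17) and the Atp5 genes of complex V (16). The rule reads no measured value. Atp5g1 and Cox6b2 carry such symbols but have no usable values in the tables and were left out. By present knowledge some names mislead: Ndufa4 is a subunit of complex IV, Ndufa4l2 is its paralog, and Atp5s and Atp5sl are no core subunits of ATP synthase.

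In the inner mitochondrial membrane, complexes I and II take electrons from NADH and succinate, complex III passes them through cytochrome c to complex IV, and complex IV reduces oxygen. Complexes I, III and IV pump protons, and ATP synthase (complex V) uses the gradient to make ATP. Several complex IV subunits exist as a common form and a second form best known from heart, skeletal muscle, lung or testis. Genes encoded in the mitochondrial DNA were not analysed here.

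RNA-seq was made from single cells of adult C57BL/6 mouse lung. Both groups came from Tbx4cre;RosaTm mice, in which Cre driven by Tbx4, a T-box factor gene of the lung mesenchyme, switches on a heritable reporter. Tbx4 lineage+ cells carry the reporter (54 profiles) and Tbx4 lineage- cells do not (39 profiles). The mark shows that a cell or its ancestors had Cre, not that Tbx4 is on in the adult. The labels' protocol names a gate of epcam+ CD31- CD45- 7AAD- for both groups, while the series text calls the cells mesenchymal. The sample descriptions start with 7m-Lung in all 54 lineage+ profiles and with Tbx4-2 in all 39 lineage- profiles, and 28 well and capture site names occur under both, so the groups carry separate run labels whose meaning no source used here states. No label names an animal, so each group is 1 sample, group cannot be told apart from preparation or from what these prefixes mark, and no p-value or standard error is given.

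After 2 pairs of nearly identical lineage+ profiles (r of 0.996 and 0.997, against 0.596 for the next of 4278 pairs) were averaged, the 50 lineage+ and 34 lineage- cells in which 1000 genes or more reached 1 FPKM were used. FPKM are reads scaled to gene length and sequencing depth. The deposited values keep no read counts, so the depth of each cell is unknown. The number of genes detected per cell ranged from 1071 to 3708 with a median of 2412.5 in lineage+ cells, and from 1027 to 2827 with a median of 1812 in lineage- cells. The cells were also of different kinds. Clustered without the 82 genes and named from markers, the lineage+ cells were 40 fibroblast-like and 10 mesothelial-like cells, and the lineage- cells were 17 epithelial-like, 13 immune-like, 3 fibroblast-like and 1 mesothelial-like. Fibroblast markers (9 of 11 listed had values) summed to a median of 17705 FPKM per lineage+ cell, with a range from 2086 to 64316, and to 1.07 FPKM per lineage- cell, with a range from 0 to 27047. Epithelial markers (13 of 14) summed to a median of 1.54 FPKM, from 0 to 496, in lineage+ cells and 9290 FPKM, from 73.6 to 634279, in lineage- cells, and Sftpd was at 0 in every lineage+ cell. Immune markers (9 of 10) had a median of 0 FPKM, up to 117, in lineage+ cells and 2961 FPKM, up to 59549, in lineage- cells, and Cd52, Laptm5 and Ctss were at 0 in every lineage+ cell. Epcam, the gene of the epithelial sort marker, was found in 1 lineage+ cell of 50 and 12 lineage- cells of 34. Pecam1, the gene of CD31, was at 0 in every cell. Lineage- cells 34 and 17 stand apart, with values that sum to 1072630 and 913353 FPKM, against at most 471709 in any lineage+ cell and 632196 in any other lineage- cell, and results that rest on them are given with and without them.

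The respiratory chain genes were widely expressed. Of the 82 genes, 51 (62.2%) were detected, at 1 FPKM or more, in at least 50% of the 84 kept cells, against 4.69% of all genes. Cox7c, a small membrane subunit of complex IV, was found in 48 of 50 lineage+ cells and 31 of 34 lineage- cells. Cox6a1, the common form of another small complex IV subunit, was found in 45 of 50 lineage+ and 32 of 34 lineage- cells, and Cox4i1, the common form of subunit 4, in 47 and 29. These 3 were the genes found in at least 90% of all kept cells. At the other end, 9 genes were detected in under 10% of cells, and Cox7b2 and Cox8c were listed at 0 in every cell.

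**Figure D1:**
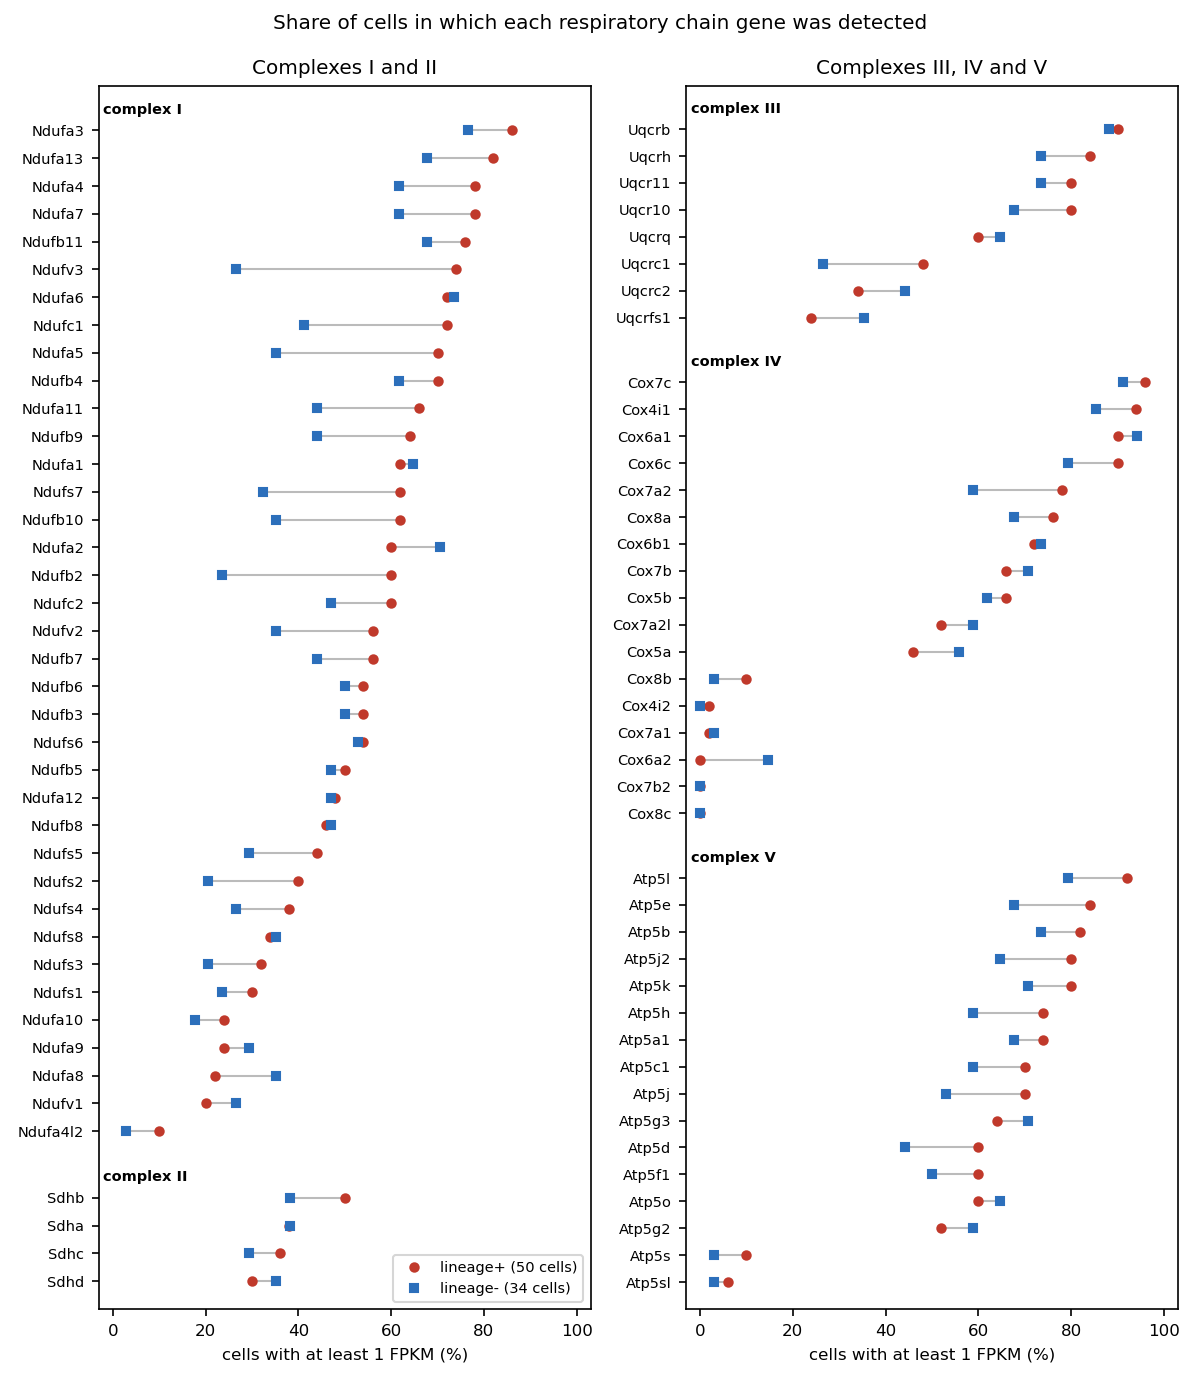
Percent of kept cells with at least 1 FPKM of each of the 82 genes, by complex, in 50 lineage+ cells (circles) and 34 lineage- cells (squares). Circles lie to the right of squares for most genes of complexes I and V, Ndufv3 has the widest such gap (74% and 26.5%), and the tissue-restricted complex IV forms lie at the left edge.

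Cox6a1 was also the most abundant of these genes in the largest number of cells. It had a median of 628 FPKM and a highest value of 3531 FPKM in lineage+ cells, against a median of 800 and a highest value of 4521 FPKM in lineage- cells. It led the 82 genes in 17 of 50 lineage+ and 8 of 34 lineage- cells, and the groups overlap over nearly their whole range. The lowest value was 0 FPKM in both groups for every one of the 82 genes except Cox6a1, whose lowest lineage- value was 0.45 FPKM.

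The promoters of the 4 most widely detected genes that have an entry in the RefSeq promoter table (GRCm38.p6, 250 bases before to 50 after the gene start) are shown because NRF1, ETS factors and YY1 are known regulators of this gene set. Of the 82 genes 67 had an entry. Capitals mark the cores searched on both strands: CGCATGCG for NRF1, which reads the same on both, CCGGAAG or its complement CTTCCGG for ETS factors, and AAGATGGC for YY1. The Cox7c promoter lies at chr13:86046746-86047045 on the minus strand, Cox6a1 at chr5:115348909-115349208 (minus), Atp5l at chr9:44920693-44920992 (minus) and Ndufa3 at chr7:3617123-3617422 (plus).
Cox7c: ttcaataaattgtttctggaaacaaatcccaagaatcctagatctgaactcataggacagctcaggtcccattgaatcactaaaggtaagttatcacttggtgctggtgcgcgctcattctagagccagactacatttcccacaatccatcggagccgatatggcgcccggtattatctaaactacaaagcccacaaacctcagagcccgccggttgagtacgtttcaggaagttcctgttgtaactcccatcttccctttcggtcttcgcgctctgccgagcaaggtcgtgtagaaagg
Cox6a1: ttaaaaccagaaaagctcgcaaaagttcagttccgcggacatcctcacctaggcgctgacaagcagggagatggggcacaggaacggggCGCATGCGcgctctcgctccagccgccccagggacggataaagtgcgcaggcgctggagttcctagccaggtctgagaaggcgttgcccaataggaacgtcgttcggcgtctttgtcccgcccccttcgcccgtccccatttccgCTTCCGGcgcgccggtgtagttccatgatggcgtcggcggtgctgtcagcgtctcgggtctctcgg
Atp5l: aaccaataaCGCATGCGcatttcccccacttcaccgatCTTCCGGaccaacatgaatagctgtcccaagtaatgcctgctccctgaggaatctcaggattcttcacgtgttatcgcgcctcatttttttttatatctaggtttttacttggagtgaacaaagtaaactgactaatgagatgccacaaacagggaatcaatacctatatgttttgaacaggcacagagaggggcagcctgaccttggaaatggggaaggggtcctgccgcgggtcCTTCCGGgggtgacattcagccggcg
Ndufa3: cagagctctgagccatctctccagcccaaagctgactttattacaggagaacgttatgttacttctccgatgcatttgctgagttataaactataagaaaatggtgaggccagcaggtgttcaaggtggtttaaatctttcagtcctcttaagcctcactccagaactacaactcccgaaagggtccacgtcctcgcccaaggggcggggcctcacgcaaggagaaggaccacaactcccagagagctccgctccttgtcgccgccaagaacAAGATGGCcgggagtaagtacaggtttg
Cox6a1 holds 1 NRF1 and 1 ETS core, and Atp5l, the g subunit of the ATP synthase membrane part, holds 1 NRF1 and 2 ETS cores. Ndufa3, an accessory subunit of complex I, has a YY1 core next to its start, and Cox7c has none of these letters in the window. Over the 67 promoters, the NRF1 core was found in 9 (13.4%), the ETS core in 16 (23.9%) and the YY1 core in 11 (16.4%), against 2.07%, 9.93% and 3.19% of 27025 genes. At least 1 of the 3 stood in 30 (44.8%) of the promoters, against 14.1% of the 27025 genes, which were not sorted by gene type. It stood in 20 of the 44 genes found in at least 50% of the kept cells and in 10 of the 23 others. The CG dinucleotide was at more than 0.6 of the number that base composition predicts in 55 (82.1%) of the 67, against 38.3% of the same 27025 genes. A match of letters is no evidence of binding.

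Each cell had only some of the 82 genes. Lineage+ cells had from 20 to 65 of them with a median of 48, and lineage- cells had from 9 to 61 with a median of 40.5. As a share of the 82, the medians were 58.5% in lineage+ and 49.4% in lineage- cells, with wide overlap. The number followed the genes detected in the same cell, with a Pearson r of 0.931 over 50 lineage+ cells and 0.865 over 34 lineage- cells, 2 measures that share the depth of the library. In cells with 1500 to 2500 genes detected (24 lineage+ and 17 lineage-), the median was 50% of the 82 genes in both groups. In cells with at least 2000 genes (35 lineage+ and 12 lineage-) it was 60.98% in both. Within these ranges the groups were not matched on genes detected, and from 1500 to 2500 the lineage+ cells had more genes at the median. As a percent of the genes detected in the same cell, the 82 genes had a median of 1.94% in lineage+ cells, from 1.53% to 2.25%. In lineage- cells it was 2.12%, from 0.80% to 2.90%.

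**Figure D2:**
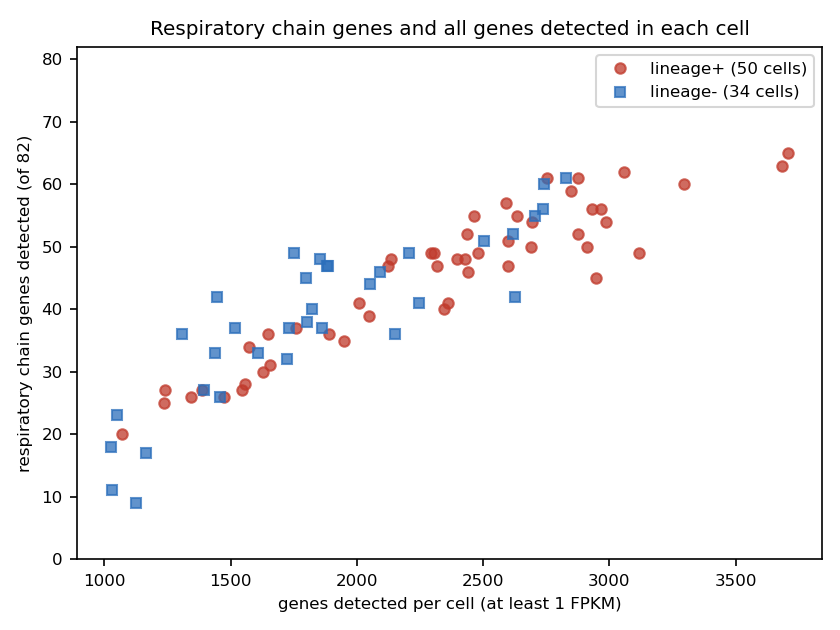
Respiratory chain genes detected (of 82) against all genes detected in each kept cell, lineage+ cells as circles and lineage- cells as squares. Points of both groups overlap, and lineage+ cells reach further right, up to 3708 genes. As a percent of the genes detected in a cell, the 82 genes had a median of 1.94 in lineage+ and 2.12 in lineage- cells.

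Gene by gene, the direction of the group difference depended on how cells were averaged. Of the 82 genes, 77 were found in 10% or more of the cells of 1 group or both. By the ratio of mean FPKM (1 added to each mean), the log2 ratio, lineage+ over lineage-, had a median of -0.35, against 0.15 over the 7588 genes that passed the same filter. At least 2-fold higher were 8 of the 77 genes, where 29.7% of all genes were, and at least 2-fold lower were 11, where 23.4% of all genes were. Both shares lie under the background, and 58 of the 77 genes lay within 2-fold. Single cells weigh on these values: without its highest lineage+ cell or its highest lineage- cell, the ratio of 24 of the 77 genes moved by over 1.5-fold. Leaving out the highest lineage+ cell of each gene can only lower the means of that group and gave a median of -0.54, and leaving out the highest lineage- cell gave 0.13. By the mean of log2 (FPKM plus 1), which gives 1 very high cell less weight, the median difference was 0.44, against 0.23 over all genes. On that scale 16 genes were higher by 1 or more (14.3% of all genes) and 2 were lower (3.89% of all genes). Set beside genes as widely detected the order turns: among genes found in at least 50% of the kept cells the median difference was 0.59 over 51 respiratory chain genes, of which 13 (25.5%) were higher by 1 or more, against 0.87 over all such genes, of which 452 (45.2%) were. For 32 of the 77 genes the group mean was lower and the mean of log2 higher in lineage+ cells, a count for which no share over all genes is given here.

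Detection and level in detecting cells were then taken apart. Of the 77 genes, 55 were detected in a larger share of lineage+ cells and 22 in a larger share of lineage- cells. Over all 7588 genes that passed the same filter, these counts were 5126 and 2450. Among genes found in at least 50% of the kept cells, they were 39 and 12 for respiratory chain genes. Over all such genes they were 840 and 147, so there the respiratory chain genes leaned less to lineage+ cells. The share was at least 10 points higher in lineage+ for 32 genes (37.3% of all genes) and at least 10 points lower for 5 (12.8% of all genes). For each of the 73 genes found in at least 5 cells of both groups, the median level was taken over the cells that had the gene. These values had a median of 109 FPKM over lineage+ and 122 over lineage- cells, and 41 of the 73 genes were higher in lineage- cells on that measure. No share over all genes is given here for that count. Among genes found in at least 50% of the kept cells, 28 of 51 respiratory chain genes were higher in lineage- cells. Of all such genes found in at least 5 cells of both groups, 420 of 991 were. The number of genes detected per cell, given above, differs between the groups in the same direction as the share of cells, and its part in these values was not tested.

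**Figure D3:**
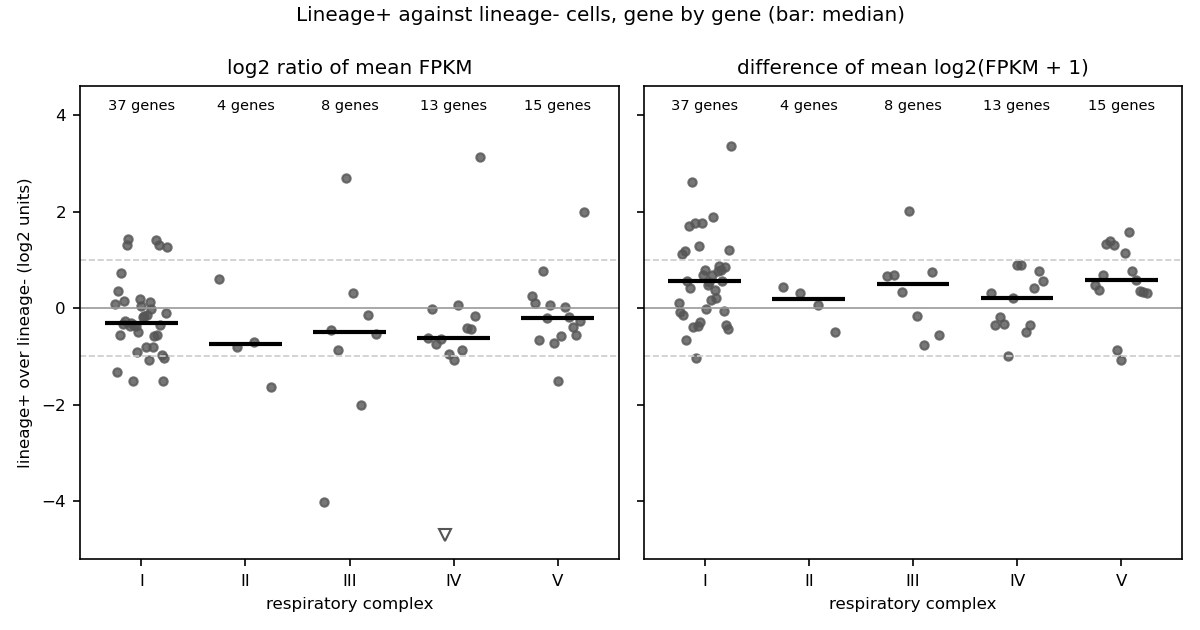
Lineage+ over lineage- difference of each of 77 genes by complex, as log2 ratio of mean FPKM (left) and as difference of mean log2(FPKM + 1) (right), with medians as bars and dashed lines at 2-fold. All 5 medians lie below 0 on the left (complex V at 0.11 with cells scaled to equal totals, complex I at 0.10 without the highest cell of each group, and both above 0 without the highest lineage- cell of each gene) and above 0 on the right, and the open triangle is Cox6a2, listed at 0 in every lineage+ cell, whose place on the left rests on the 1 FPKM added to each mean.

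All 5 complexes had a median log2 ratio of means below 0, at -0.31 for complex I, -0.75 for II, -0.50 for III, -0.62 for IV and -0.22 for V, although complex V was at 0.11 with every cell scaled to the same total and complex I at 0.10 without the highest cell of each group. Without the highest lineage- cell alone, complex I was at 0.31 and complex V at 0.048. Without lineage- cells 34 and 17 the medians were -0.39, -0.84, -0.40, -0.24 and -0.27 in that order, so the value of complex IV rests in large part on these 2 cells. By the mean of log2 all 5 medians were above 0, at 0.56, 0.19, 0.50, 0.22 and 0.59. Cytosolic ribosomal protein genes, another widely expressed set, had a median ratio of -0.23 over 76 genes by means and 0.84 by the mean of log2. The 37 proteasome genes had 0.040 and 0.35.

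Complex I has a core of catalytic subunits and many accessory ones. Over the 28 accessory genes 3 were at least 2-fold higher and 3 lower, and over the 7 core genes 1 was higher and 2 lower. Ndufv3, the small flavoprotein-arm subunit, had a median of 73.7 and a highest value of 1322 FPKM in lineage+ cells, against a median of 0 and a highest value of 909 FPKM in lineage- cells. It was detected in 37 of 50 lineage+ cells and in 9 of 34 lineage- cells. The shares are 74% for lineage+ (95% interval 59.7 to 85.4, exact Clopper-Pearson) and 26.5% for lineage- (12.9 to 44.4), and the intervals cover counting error over cells only. It averaged 155 ± 227 FPKM over lineage+ and 63.5 ± 188 over lineage- cells (SD over 50 and 34 cells), a log2 ratio of 1.27, and its mean of log2 was 3.35 higher in lineage+.

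Ndufa5, an accessory subunit of the matrix arm, had a median of 36.0 and a highest value of 1043 FPKM in lineage+ cells, against a median of 0 and a highest value of 445 FPKM in lineage- cells. It was found in 35 of 50 lineage+ and 12 of 34 lineage- cells, with a log2 ratio of 1.43 by means and 2.60 by the mean of log2. Lineage+ cells thus had these 2 genes both more often and at a higher mean. Ndufs3, a core subunit of the matrix arm, had a log2 ratio of 1.42, with 69.5 FPKM on average in lineage+ and 25.4 in lineage- cells. Its lineage+ mean leaned on cell 46, at 1467 FPKM, and in cells with at least 2000 genes the ratio was -0.062. Ndufs5, an accessory subunit, had 47.8 FPKM on average in lineage+ and 18.8 in lineage- cells.

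Ndufa8, an accessory subunit imported by the intermembrane space relay, was lower by both summaries. It averaged 30.9 FPKM over lineage+ and 90.4 over lineage- cells, was found in 11 of 50 lineage+ and 12 of 34 lineage- cells, and had a log2 ratio of -1.52 by means and -1.03 by the mean of log2. Ndufs8, a core iron-sulfur subunit, was detected in nearly the same share of both groups, 34% of lineage+ and 35.3% of lineage- cells, and averaged 42.3 FPKM over lineage+ and 123 over lineage- cells. Its difference in means therefore lies in the level of the cells that had it. Averaged over those cells alone, the level was 124 FPKM for the lineage+ group and 347 for the lineage- group. By their median the gap was smaller, at 98.6 against 139 FPKM. The highest lineage- values were 1087 and 878 FPKM, so a few high cells weighed on that average. Ndufb2, an accessory subunit of the membrane arm, shows how 1 cell can set a mean: it was found in 30 of 50 lineage+ and 8 of 34 lineage- cells, yet averaged 63.1 FPKM over lineage+ and 89.5 over lineage- cells, where cell 16 alone had 2695 FPKM and the next cell 180 FPKM. Ndufc1, another, was found in 36 of 50 lineage+ and 14 of 34 lineage- cells and averaged 141 and 130 FPKM. The most abundant complex I symbols were Ndufa4 and Ndufa3. Ndufa4 averaged 354 FPKM over lineage+ and 428 over lineage- cells, and Ndufa3 averaged 391.8 FPKM over lineage+ and 356 over lineage- cells.

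Complex II, succinate dehydrogenase, was the least detected complex, with a median over its 4 genes of 37% of lineage+ and 36.8% of lineage- cells. Sdha, the flavoprotein, was found in 19 of 50 lineage+ and 13 of 34 lineage- cells and averaged 27.6 and 17.9 FPKM. Sdhb, the iron-sulfur subunit, averaged 80.2 FPKM over lineage+ and 140 over lineage- cells. Sdhd, a membrane anchor, was detected in 15 of 50 lineage+ cells and in 12 of 34 lineage- cells, at 41.3 and 130 FPKM on average, a log2 ratio of -1.63.

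Complex III held both the highest and the lowest ratio among genes found in 25% or more of the higher group's cells. Uqcrc1, a core protein on the matrix side, had a median of 0.18 and a highest value of 903 FPKM in lineage+ cells, against a median of 0 and a highest value of 237 FPKM in lineage- cells. It was found in 24 of 50 lineage+ and 9 of 34 lineage- cells and averaged 79.6 ± 179 and 11.5 ± 44.1 FPKM (SD over 50 and 34 cells), a log2 ratio of 2.69 by means and 2.01 by the mean of log2. Its partner Uqcrc2 averaged 59.4 FPKM over lineage+ and 47.9 over lineage- cells, and was detected in 34% and 44.1% of them. Uqcrfs1, the Rieske iron-sulfur protein, averaged 10.9 FPKM over lineage+ and 46.9 over lineage- cells, a log2 ratio of -2.00, but 0.13 in cells with at least 2000 genes.

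Uqcr10, a small subunit of complex III (chr11:4701968-4704344 in GRCm38), had the lowest log2 ratio, -4.02, and that value rests on 1 cell. Lineage- cell 34 had 110834 FPKM of Uqcr10, and complex III took 10.3% of the total of that cell, while the next lineage- cell had 1503 FPKM and the highest lineage+ cell 1118 FPKM. Medians ran the other way, 164 FPKM over lineage+ and 27.7 over lineage- cells, and without cells 34 and 17 the ratio was -0.46. Cell 17 likewise carried the highest values of Cox6c, a small complex IV subunit, at 12638 FPKM, and of Uqcrb, a small complex III subunit, at 10164 FPKM. Without both cells the log2 ratio of Cox6c was 0.082, against -1.07 with them, and that of Uqcrb was -0.34, against -0.87.

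By the ratio of means, the other common complex IV genes differed by less than 2-fold between the groups. Cox4i1 averaged 327 FPKM over lineage+ and 502.5 FPKM over lineage- cells, or 374 without lineage- cells 34 and 17, which moved its log2 ratio to -0.20, against -0.62 with them. Means were, for Cox6b1, the subunit at the dimer interface, 162 FPKM in lineage+ and 315 in lineage- cells, and for Cox7b, another small subunit, 73.9 and 98.9. Without the same cells the log2 ratio of Cox6b1 was -1.04, against -0.96 with them. Cox7a2l, which helps to join complexes III and IV, averaged 93.6 FPKM over lineage+ and 171 over lineage- cells and was detected in 52% and 58.8% of them. Cox7a2 averaged 145 FPKM over lineage+ and 138 over lineage- cells and was found in 78% of lineage+ and 58.8% of lineage- cells.

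Complex V joins an F1 head, where ATP is made, to a membrane part with a ring of c subunits. All 5 F1 genes (Atp5a1, Atp5b, Atp5c1, Atp5d and Atp5e, the alpha to epsilon subunits) were detected in a larger share of lineage+ cells, and their median log2 ratio was 0.11 by means and 0.68 by the mean of log2. Most genes as widely detected did the same. Of all genes found in at least 50% of the kept cells, 840 were in a larger share of lineage+ cells and 147 of lineage- cells. The medians of all such genes were 0.12 by means and 0.87 by the mean of log2. Atp5d averaged 77.1 FPKM over lineage+ and 45.2 over lineage- cells, a log2 ratio of 0.76. Atp5l, the g subunit, averaged 276 FPKM over lineage+ and 408 over lineage- cells, and Atp5k, the e subunit, 272 and 359, with a log2 ratio of -0.40, or -0.099 without lineage- cells 34 and 17. Both measured genes of the c-ring, whose 3 genes encode the same mature subunit and of which Atp5g1 has no values, were lower by both summaries. Atp5g3 had a median of 13.6 and a highest value of 1145 FPKM in lineage+ cells, against a median of 27.4 and a highest value of 4099 FPKM in lineage- cells. It averaged 121 and 348 FPKM, a log2 ratio of -1.52 by means and -1.07 by the mean of log2. Atp5g2 averaged 65.8 FPKM over lineage+ and 109 over lineage- cells, with -0.72 and -0.86. Lineage+ cell 27 had 1537 FPKM of Atp5g2, and without it the mean was 35.8 FPKM over lineage+ cells and the ratio -1.58. Reads of near-identical paralogs may have been divided between them, and no source used here says how.

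By both summaries, 3 genes were higher in lineage+ cells by 2-fold or more (Ndufv3, Ndufa5 and Uqcrc1) and 2 were lower (Atp5g3 and Ndufa8). The share of all genes past 2-fold by both is not given here, so whether these counts are many or few is not known. Under the 16 alternative settings the log2 ratio of these 5 genes kept its sign, from 0.63 to 3.35 for Ndufv3, from 0.60 to 2.60 for Ndufa5, from 2.01 to 5.03 for Uqcrc1, from -2.20 to -0.76 for Atp5g3 and from -2.58 to -0.69 for Ndufa8. In part this was fixed in advance. Settings that change only the filter on detection cannot move the ratio of a gene. The mean of log2 is 1 of the 2 summaries by which these 5 genes were picked. The highest Ndufa8 value, 899 FPKM, was in lineage- cell 23, a well described as debris, and without that cell the ratio of Ndufa8 was -1.07. In lineage+ cells the highest value, 847 FPKM in cell 44, held much of the mean, which was 14.3 FPKM without it, with a ratio of -2.58. Across marker-named cells, Ndufv3 was detected in 29 of 43 fibroblast-like, 9 of 11 mesothelial-like, 4 of 17 epithelial-like and 4 of 13 immune-like cells. Ndufa5 was detected in 31, 7, 6 and 3 of these cells. Atp5g3 was detected in all 11 mesothelial-like cells, in 24 of 43 fibroblast-like, 11 of 17 epithelial-like and 10 of 13 immune-like cells. Nearly all fibroblast-like and mesothelial-like cells are lineage+ and all epithelial-like and immune-like cells are lineage-, so class and group cannot be told apart.

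The second forms of complex IV subunits were rare or, as with Cox7b2 and Cox8c, at 0 in every cell. Cox6a2, the heart and skeletal muscle form of Cox6a1 (chr7:128205435-128206366), was at 0 in all 50 lineage+ cells, which allows a share of up to 6% of cells (3 cells of 50, counting error only). It is 1 of the 11 genes counted as at least 2-fold lower, and no fold is given for it. It was detected in 5 of 34 lineage- cells, at 1379, 331, 81.6, 33.0 and 11.6 FPKM. All 5 lay in cluster 0, 9 epithelial-like cells whose leading genes include Lyz2, Il8 and Cbr2 and the surfactant genes Sftpa1, Sftpd and Sftpb. Cox6a2 was at 0 in the other epithelial-like cells. Not every epithelial marker was present: in the order of the Cox6a2 values, Sftpc, another surfactant gene, was at 0, 0, 0, 128844 and 368330 FPKM. Epcam was at 0.67, 0.24, 14.9, 0 and 0 FPKM. In the same 5 cells Cox6a1 had 3718, 1150, 1446, 116 and 32.1 FPKM, so Cox6a1 was the higher of the pair in each. Cox6a2 shares exon bases with Itgad in GENCODE M21, and Itgad was at 0 in all 5 cells.

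Cox8b, the muscle and brown fat form of subunit 8 (chr7:140898942-140900446), was detected in 5 of 50 lineage+ cells, at 146, 132, 91.9, 71.97 and 33.9 FPKM, and in 1 of 34 lineage- cells, at 7.0 FPKM. All 6 were fibroblast-like by cluster, and in the lineage+ cell with 71.97 FPKM of Cox8b its common form Cox8a was at 0. Scored by their own markers, lineage+ cells 42 (146 FPKM) and 30 (91.9 FPKM) fell to the pericyte and smooth muscle list and the others to the fibroblast list. Ndufa4l2, known as a hypoxia-induced gene and as a pericyte marker in lung (chr10:127514939-127517156), was detected in 5 of 50 lineage+ cells, at 274, 148, 109, 36.1 and 14.6 FPKM, and in 1 of 34 lineage- cells, at 140.5 FPKM. These 6 cells were also fibroblast-like, and Mgp, a fibroblast marker, lay between 4774 and 23496 FPKM in them. Of the listed pericyte and smooth muscle markers, Pdgfrb or Abcc9 reached 1 FPKM in 5 of the 6, with Pdgfrb at 72.3 FPKM in lineage+ cell 44 and Abcc9 at 39.1 FPKM in lineage+ cell 18. Both were common over all 50 lineage+ cells, Abcc9 in 28 and Pdgfrb in 17. Of the other markers on that list, Kcnj8, Acta2 and Des were found in 13, 13 and 5 lineage+ cells. Cspg4, Notch3 and Cnn1 were at 0 in every kept cell, and Rgs5, Higd1b and Myh11 reached 1 FPKM in none. Scored by its own markers rather than by its cluster, cell 44 fell to the endothelial and cell 25 to the pericyte list. Ndufa4, found in 39 of 50 lineage+ cells, was under 1 FPKM in 4 of the 5 lineage+ cells with Ndufa4l2 and had 346 FPKM in the other, and it had 126 FPKM in the lineage- cell. Shmt2, which shares exon bases with Ndufa4l2, was at 0 in all 6. Lineage- cell 4 had both Cox8b and Ndufa4l2. Cox4i2, the lung form of subunit 4, was detected in 1 lineage+ cell at 23.2 FPKM and in no lineage- cell, and Cox7a1, a heart and muscle form, in 1 lineage+ cell at 7.7 FPKM and 1 lineage- cell at 172 FPKM, a count too small for a direction.

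**Figure D4:**
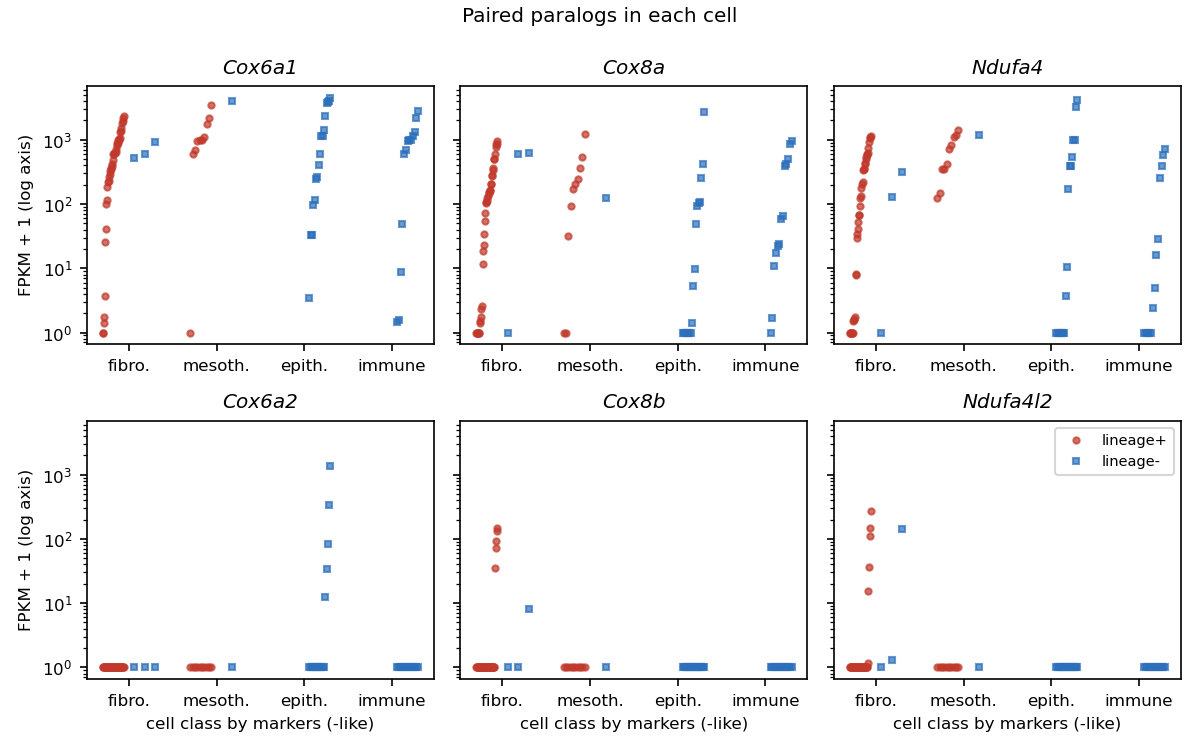
FPKM plus 1 (log axis) of 3 common genes (top) and their rare paralogs (bottom) in every kept cell, by cell class, lineage+ cells as circles left of lineage- cells as squares. Cox6a2 leaves the floor in 5 epithelial-like cells, and Cox8b and Ndufa4l2 in 6 fibroblast-like cells each.

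Promoters of 2 such pairs are shown to set the common form beside the rare one. Cox8a lies at chr19:7217567-7217866 on the minus strand and Cox8b at chr7:140900397-140900696 (minus), and Cox7a2 at chr9:79759804-79760103 (minus) and Cox7a1 at chr7:30183921-30184220 (plus).
Cox8a: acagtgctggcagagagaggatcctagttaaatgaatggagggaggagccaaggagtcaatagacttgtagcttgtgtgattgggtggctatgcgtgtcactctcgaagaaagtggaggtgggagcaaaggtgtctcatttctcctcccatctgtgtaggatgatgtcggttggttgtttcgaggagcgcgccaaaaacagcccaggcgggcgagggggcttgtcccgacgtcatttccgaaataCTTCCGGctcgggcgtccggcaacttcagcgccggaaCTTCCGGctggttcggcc
Cox8b: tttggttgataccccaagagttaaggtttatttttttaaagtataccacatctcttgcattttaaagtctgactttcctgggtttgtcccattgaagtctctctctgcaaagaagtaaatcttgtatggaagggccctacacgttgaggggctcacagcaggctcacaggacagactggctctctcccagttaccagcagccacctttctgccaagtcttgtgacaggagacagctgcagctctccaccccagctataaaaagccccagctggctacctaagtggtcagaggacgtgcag
Cox7a2: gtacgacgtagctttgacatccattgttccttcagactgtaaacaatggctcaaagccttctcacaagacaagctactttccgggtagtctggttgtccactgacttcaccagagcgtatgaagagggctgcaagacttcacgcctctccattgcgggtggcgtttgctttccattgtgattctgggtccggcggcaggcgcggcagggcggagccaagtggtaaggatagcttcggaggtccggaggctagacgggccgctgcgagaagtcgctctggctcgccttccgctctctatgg
Cox7a1: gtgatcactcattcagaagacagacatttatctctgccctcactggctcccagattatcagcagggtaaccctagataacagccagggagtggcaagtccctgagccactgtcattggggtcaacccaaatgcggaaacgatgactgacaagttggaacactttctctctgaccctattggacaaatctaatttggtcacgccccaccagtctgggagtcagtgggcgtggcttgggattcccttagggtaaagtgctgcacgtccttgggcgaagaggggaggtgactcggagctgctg
Cox8a, found in 38 of 50 lineage+ and 23 of 34 lineage- cells, holds 2 ETS cores, and Cox8b holds none of the 3 cores. The CG dinucleotide stood at 0.84 of its predicted number in Cox8a and 0.11 in Cox8b, and at 0.83 in Cox7a2 and 0.33 in Cox7a1. Cox7a2, which holds none of the cores either, was found in 39 of 50 lineage+ and 20 of 34 lineage- cells.

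As a share of all FPKM of a cell, the 82 genes took less in lineage+ cells. The share ran from 2.40% to 6.31% with a median of 3.46% in lineage+ cells, and from 0.0214% to 10.8% with a median of 4.44% in lineage- cells. The ranges overlap, and lineage- cells were the more variable. At the low end were lineage- cells 27, 13 and 35, at 0.0214%, 0.0397% and 0.217%. Each had few genes detected (1127, 1165 and 1031), and Scgb1a1, a club cell secretory gene, alone took 81.6% of the total in cell 35. The highest share, 10.8%, was that of cell 34 with its Uqcr10.

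By class, the median share was 3.40% in 43 fibroblast-like, 4.21% in 11 mesothelial-like, 4.65% in 17 epithelial-like and 4.26% in 13 immune-like cells. With each cell's most abundant gene left out of the total, an alternative chosen after seeing the data, it was 3.57%, 4.31%, 5.29% and 4.71%. Within the fibroblast-like class, 40 lineage+ cells had a median of 3.39% and the 3 lineage- cells had 2.16%, 3.61% and 4.30%. Scored by their own markers, 26 of these 40 lineage+ cells but only the lineage- cell with 3.61% fell to the fibroblast list, while that with 2.16% fell to the endothelial and that with 4.30% to the immune list. Over all classes the 2 ways of naming gave the same class for 66 of 84 cells. Within the mesothelial-like class, 10 lineage+ cells had a median of 4.08% and the 1 lineage- cell had 4.98%. Most of the fibroblast-like lineage+ cells lie in clusters 7 and 5 and the lineage- ones in clusters 5 and 4, of which cluster 4 has 1 fibroblast marker, Inmt, among its 10 leading genes.

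**Figure D5:**
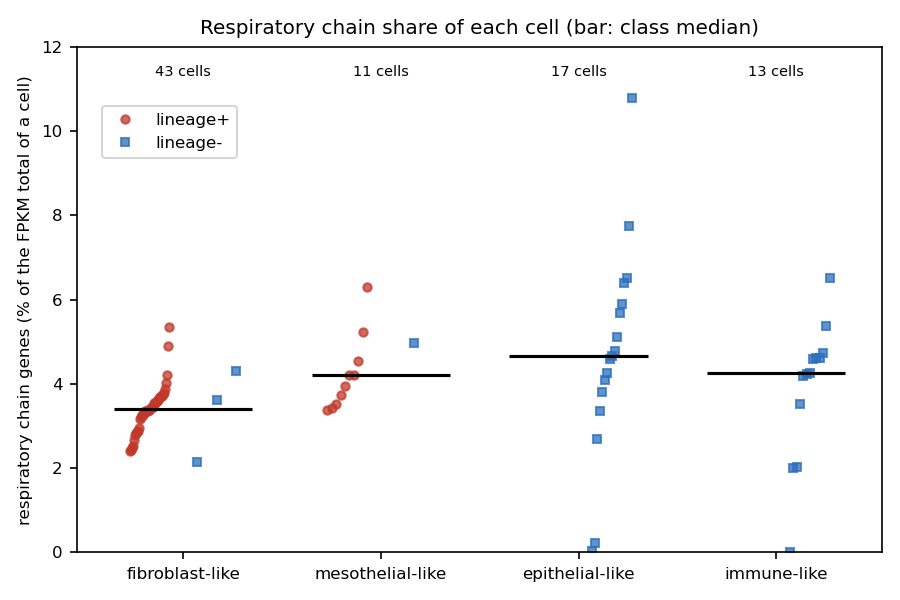
Percent of each cell's FPKM total held by the 82 genes, by cell class, lineage+ cells (circles) left of lineage- cells (squares), with class medians as bars. The fibroblast-like median, 3.40%, is the lowest of the 4, and 3 lineage- cells lie near 0.

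The complexes ranked by share in the order of their number of genes. Complex I took a median of 1.34% of the total in lineage+ and 1.27% in lineage- cells, complex III 0.51% and 0.66%, complex IV 0.82% and 0.96%, complex V 0.76% and 0.79%, and complex II 0.018% and 0.075%. Across cells of a group, pairs of the 82 genes varied together only weakly. Over genes found in at least 50% of the cells of a group, the median Spearman rho between pairs was 0.090 in lineage+ cells (54 of the 82 genes) and 0.18 in lineage- cells (41), against 0.057 and 0.11 over pairs of all such genes, values that share depth.

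Other genes of the pathway were taken from lists, whose counts stand beside 29.7% of all genes at least 2-fold higher and 23.4% at least 2-fold lower. Of 7 subunits and carriers outside the symbol rule, 1 was at least 2-fold higher and 2 lower in lineage+ cells, with Ndufab1, the mitochondrial acyl carrier protein, at 31.4 FPKM in lineage+ and 10.7 in lineage- cells and Higd1a, a complex IV-associated hypoxia-induced gene, at 13.9 and 59.04. Of 25 detected assembly factors 5 were higher and 6 lower. Among those found in 25% or more of the higher group's cells, the highest ratio, under 2-fold, was that of Acad9, a complex I assembly factor, at 3.2 FPKM over lineage+ and 1.7 over lineage- cells, and the lowest that of Ndufaf7, another, at 11.7 and 40.3, a difference that changed sign in cells with at least 2000 genes. Of 13 citric acid cycle genes 1 was higher (Dld, a subunit of several dehydrogenase complexes, 29.6 FPKM in lineage+ and 8.4 in lineage- cells) and 3 were lower, among them Suclg1, a succinyl-CoA ligase subunit, at 17.4 and 68.8. Of 11 glycolysis genes 1 was higher (Eno1, enolase, at 33.3 and 8.65, with the sign changed when all cells were used) and 2 lower, among them Ldhb, a lactate dehydrogenase subunit, at 47.1 and 142. Of 7 carriers and porins 1 was higher (Vdac3, an outer membrane porin, at 78.9 and 30.3, with the sign changed in cells with at least 2000 genes) and 2 lower, among them Ucp2, an inner membrane carrier, at 22.7 and 90.2. Of the 6 detected regulators of mitochondrial genes none was past 2-fold, and Polrmt, the mitochondrial RNA polymerase, averaged 0.82 FPKM over lineage+ and 1.5 over lineage- cells. Tfam, the mitochondrial DNA packaging factor, averaged 1.1 FPKM in lineage+ and 2.9 in lineage- cells, and Ppargc1a, a coactivator of these genes, was under 1 FPKM in every cell. By the mean of log2, 1 gene of each list but the regulators was higher by 1 or more, namely Ndufab1, Timmdc1, Idh3b, Eno1 and Slc25a4 in the order of the lists. Of these Timmdc1, Idh3b and Slc25a4 were under 2-fold by means, while Dld was at 0.99 and Vdac3 at 0.72 by the mean of log2. On that scale 1 gene was lower in the lists of further subunits (Higd1a), citric acid cycle genes (Suclg1) and carriers (Ucp2), and none in the other 3 lists. The median log2 ratio of the 6 lists lay between -0.19 and 0.075.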

How the data were processed

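C1 chips (Fluidigm) caught the cells, per the labels' protocols. Wells that were empty or held doublets or debris were removed after manual inspection, and SMARTer cDNA went into Nextera XT libraries. Doublets were not called again. Tools named by the submitters' processing notes are Bowtie 1.1.1 and RSEM 1.2.20; GRCm38 and mm9 are both named as builds, with no roles. The deposited values, 1 table per group, were taken as FPKM. This unit is inferred from the values, and no source used here says whether both tables were scaled together. Of 23846 rows, 1830 (7.67%) held no value and 731 repeated a symbol. Positions are on GRCm38, with 1 added to starts.

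Nearly identical profiles were averaged, and cells with under 1000 genes at 1 FPKM were left out. A level is the mean over kept cells, and a log2 ratio is lineage+ over lineage- with 1 added to each mean, which understates changes of low genes. Clustering left out the 82 genes (scanpy 1.11.5, 2000 variable genes, 15 components, 10 neighbours, Leiden resolution 1, seed 0), and a cluster was named where at least 3 markers of a class were detected in 30% of its cells. The ratio was tested on simulated data. Alternatives are given in the closing section. Named genes are the paralogs, the 2 highest means per complex, the 6 highest and 6 lowest ratios among genes found in 25% or more of the higher group's cells, and the extremes of each pathway list by the same filter. Cox7c, Sdha, Uqcrc2, Tfam, Ppargc1a and the other genes named were added after their values were seen. The 82 genes and the lists were chosen with earlier results of these data known.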

Additional observations from a re-analysis of the deposited data

How the results depend on the processing

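The groups are 1 sample each and the values are FPKM, so no test was run, precision beyond counting error over cells is unknown, and the part of depth in detection cannot be separated. No paired analysis was possible because the labels give replicate numbers to single cells, not to animals or preparations, and no value comes from a test. Under the mean of log2 values the median of the respiratory chain genes was 0.44, against -0.35 as reported, with the sign changed, complexes I to V were at 0.56, 0.19, 0.50, 0.22 and 0.59, and 16 genes were higher and 2 lower by 1 or more. Genes at least 2-fold higher numbered 5 with a pseudocount of 10, 5 among genes found in at least 25% of cells and 5 with cells scaled by the median of ratios, against 8 as reported; genes at least 2-fold lower numbered 24 under that scaling, 7 in cells with at least 2000 genes and 17 in cells with 1500 to 2500 genes, against 11. That scaling moved the median of all genes to -0.14, against 0.15 as reported, and scaling to equal totals moved it to 0.28. The median of the respiratory chain genes was -0.60 and -0.13 under these 2 scalings. Complex V was at 0.11 with equal totals and complex I at 0.10 without the highest cell of each group, both with the sign changed. Leaving out each gene's highest lineage+ cell gave 4 genes higher and 20 lower, and leaving out its highest lineage- cell gave 5 lower, a median of 0.13 and complex I at 0.31, which follows in direction from lowering the mean of 1 group. The cause of the other changes was not tested. Among named genes at least 2-fold apart as reported, the ratio changed sign for Cox7a1 in cells with at least 2000 genes (0.29) and without the highest lineage- cell (0.21), for Uqcr10 by the mean of log2 (0.67), and for Cox6c by the mean of log2 (0.89), without the highest cell of each group (0.038), without the highest lineage- cell (0.13), in cells with at least 2000 genes (0.42) and without lineage- cells 34 and 17 (0.082). In cells with at least 2000 genes it changed sign for Ndufs3 (-0.062), Uqcrfs1 (0.13), Ndufaf7 (0.81) and Vdac3 (-0.072), and with all cells for Eno1 (-0.39). Of the 45 named genes, 10 changed sign by the mean of log2, the other 8 being under 2-fold as reported. Of 159 summary values 141, and of 720 values of named genes 582, moved by less than 1.5-fold. The 582 include 45 values with no filter on detection and 45 with the filter at 25% of cells. These could not move, since such a filter leaves the ratio of a gene as it is. By the mean of log2, 17 of the 45 named genes moved by less than 1.5-fold, 26 moved by more and 2 past 2-fold changed sign. Leaving out lineage- cells 34 and 17, the range of 1500 to 2500 genes, leaving out 1 highest cell of 1 group and the shares without the most abundant gene were chosen after seeing the data.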
